A study of Homo sapiens with 12 samples.

Results

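ODN2006 is a single-stranded CpG oligodeoxynucleotide, and its control carries the same bases with each CG turned into GC. This comparison set the 2 side by side in Hs578T and BT-20 cells, lines grown from breast tumours, with 1 Affymetrix HG-U133 Plus 2.0 array for each oligonucleotide in each line, and so with 4 of the 12 arrays of the series. The arrays were chosen by the treatment and the cell line in their labels, and no measured value was used. All cells had received 200 nM of an oligonucleotide with the liposomal reagent DOTAP for 24 h, in medium with foetal calf serum. The other 8 arrays were from the same lines after a double-stranded oligonucleotide whose 4 CpG motifs were methylated (M) or not (U), with 2 biological replicates of each per line, named set 1 and set 2. Arrays of untreated cells or of cells given DOTAP alone were not analysed here, so each value below is a difference between oligonucleotides and not a difference from resting cells. With 1 array per oligonucleotide and line, the spread was taken from the M and U replicates, and whether the ODN cultures varied like them could not be measured.

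Unmethylated CpG motifs are rare in vertebrate DNA and frequent in bacterial DNA. In B cells and plasmacytoid dendritic cells they are sensed in the endosome by Toll-like receptor 9 (TLR9), which acts through the adaptor MYD88, the kinases of the IRAK family and the ubiquitin ligase TRAF6 on the IkB kinase complex. This releases the transcription factor NF-kB, whose targets include cytokines, chemokines and its own inhibitors, and in some cells activates IRF7, which drives interferon genes. ODN2006 belongs to the oligonucleotides used to stimulate human B cells, and epithelial and mesenchymal tumour cells usually hold little TLR9.

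The sequences are shown because the position of these bases is the only difference in sequence between the treatments. Both are 24 bases long and hold 14 T. The letters that differ are in capitals: ODN2006 has 4 CG dinucleotides, the control has 4 GC dinucleotides at the same places, 8 positions differ and 16 are the same.
ODN2006: tCGtCGttttgtCGttttgtCGtt
control ODN: tGCtGCttttgtGCttttgtGCtt

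Values are log2 signals after GCRMA, a background correction and summary of the probes of each probe set, so that a difference of 1 is a 2-fold change. A gene was represented by its probe set with the highest mean, and 10543 genes with a value of at least 5 in at least 2 of the 12 arrays were tested. Values under 5 were read as at or near background. Pairs of values are given as the ODN2006 array against the control array of the same line. Array medians lay between 3.01 and 3.09, and 33.9% to 35.0% of probe sets were at 5 or above. The lines kept their identities under both oligonucleotides: the mean of 16 epithelial markers was 11.26 to 11.28 in the BT-20 arrays and 4.45 to 4.59 in the Hs578T arrays, and that of 19 mesenchymal markers was 12.66 to 12.67 in Hs578T and 3.71 to 3.79 in BT-20. Of 16 markers of immune cells, 15 were under 5 in all 4 ODN arrays.

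Few differences between ODN2006 and its control passed the adjusted threshold, and few of those over 2-fold were shared by the lines. Over both lines 1 gene of 10543 passed an adjusted p of 0.05 in limma (0.00948%), a long non-coding RNA described below. In Hs578T none passed (0.0%, with 581 genes at an unadjusted p under 0.05 and a smallest adjusted p of 0.0819). In BT-20 2 passed (0.019%, with 223 at an unadjusted p under 0.05), and 0 did with the M and U sets as a replicate block or without any 1 of the 8 M and U arrays. For the difference between the lines 0 passed (0.0%, with 309 at an unadjusted p under 0.05 and a smallest adjusted p of 0.669). All gene values below other than those of these 2 genes are therefore given as measured levels, and a gene is called higher or lower only as a description of its arrays. At an unadjusted p under 0.05 with the same sign in both lines, 108 genes were higher (1.02%) and 302 were lower (2.86%), and with the replicate block the numbers were 241 and 710. These counts lean towards lower values in part with the scale: higher genes made up 26.3% of them, but 41.4% after quantile normalization, 39.5% with housekeeping centring and 56.7% without the filter on dim genes.

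The typical tested gene was slightly lower with ODN2006 on the deposited scale. The median change over all genes was -0.062 over both lines, -0.071 in Hs578T and -0.036 in BT-20. This shift depended on the scale and the filter. The median over both lines was -0.027 after quantile normalization, -0.023 with housekeeping centring and 0.017 without the filter on dim genes. Of all genes 35.1% were higher over both lines, 38.0% in Hs578T and 41.8% in BT-20, and counts of higher and lower members of a list are to be read against these shares. The sign was the same in both lines for 5873 genes (55.7%), and the changes in the 2 lines correlated at 0.0834 across genes, which share their arrays and are not independent. In the M and U arrays, M minus U had the same sign in both lines for 49.9% of genes in set 1 and for 58.7% in set 2, so the ODN pair lies between them. Changes over 2-fold numbered 281 in Hs578T (125 higher, 156 lower) and 149 in BT-20 (36 higher, 113 lower). The M and U pairs gave 82 and 273 such genes in Hs578T and 195 and 80 in BT-20, for set 1 and set 2. In both lines at once, 2 genes were over 2-fold higher and 3 were over 2-fold lower with ODN2006. M minus U gave 0 higher and 0 lower in set 1, and 4 higher and 1 lower in set 2, so such numbers also arose without the ODNs.

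**Figure D1:**
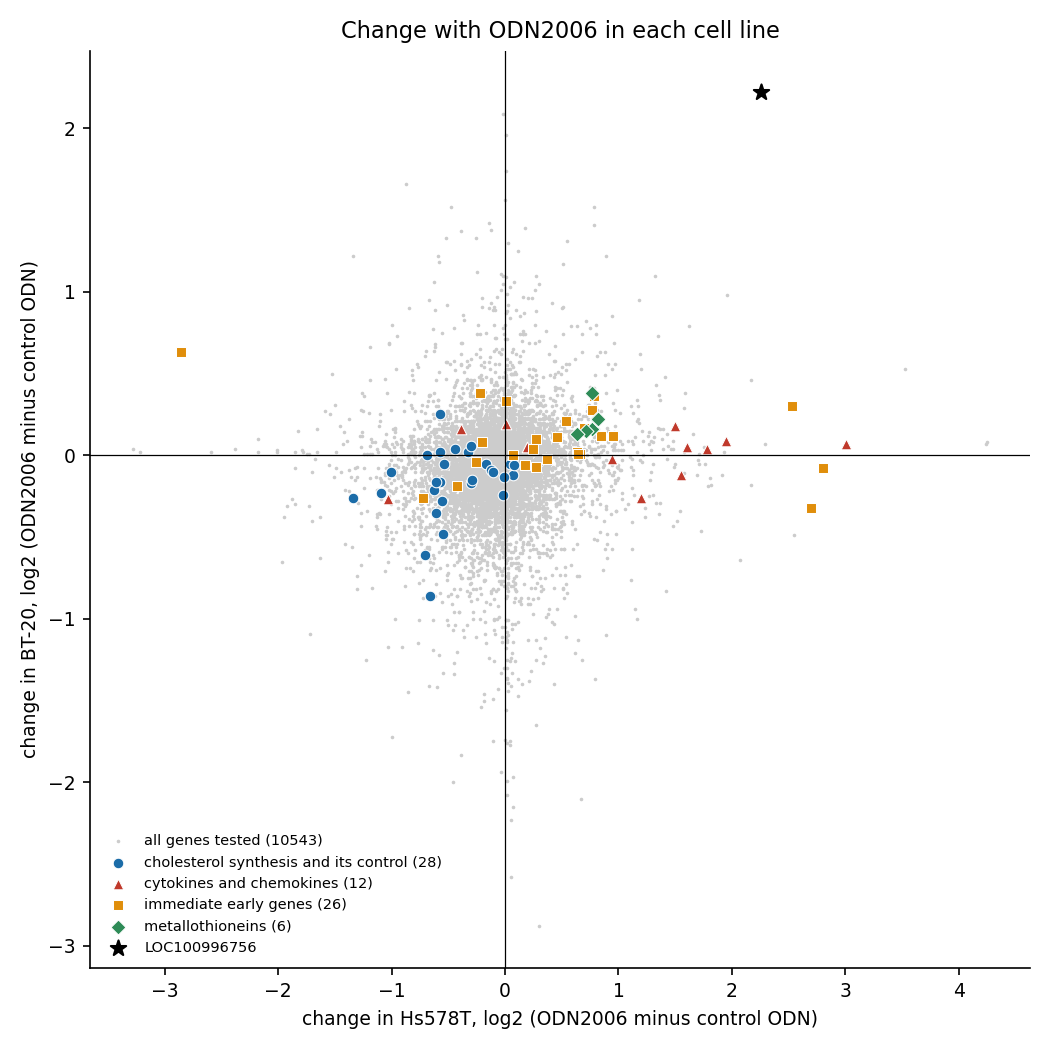
Change in log2 value with ODN2006 against its control in Hs578T (horizontal axis) and BT-20 (vertical axis) for the 10543 genes tested (grey), with gene lists in colour. Most coloured points spread along the horizontal axis. LOC100996756 stands alone at 2.26 and 2.22.

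The gene past the threshold, LOC100996756, is a long non-coding RNA on chromosome 1 (146386547 to 146388089 in the RefSeq annotation of GRCh38.p14). Its value in Hs578T was 9.26 against 7.01. In BT-20 the values were 7.67 and 5.45, and the 8 M and U arrays lay between 2.04 and 2.23. So it was at background with M and U, well above it with the control ODN, and higher still with ODN2006 in both lines. The change over both lines was 2.24 (standard error 0.13, adjusted p = 0.00923 from limma). That standard error was measured where the gene was at background. With only the 4 ODN arrays the adjusted p was 0.761, with trend and robust settings 0.488, with the ODN and set 2 arrays 0.0747, and 0.0709 to 0.0753 without any 1 of 6 of the M and U arrays (both Hs578T M, both Hs578T U and both BT-20 U arrays). The other gene called in BT-20 was DNAJC18, a member of the DnaJ family of co-chaperones, at 4.13 with ODN2006, 2.03 with the control and 2.10 to 2.11 with M and U. Both ODN values lie under 5, and its other probe sets changed by 0.40 and 0.02. In Hs578T it was at 6.38 and 6.40.

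The other genes over 2-fold in both lines were close to background in at least 1 of them. ADAMTS6, a secreted metalloprotease, was at 9.59 against 8.27 in Hs578T, but at 3.32 and 2.22 in BT-20. IL11RA, the receptor chain for interleukin 11, was lower, at 4.16 against 5.88 in Hs578T and 2.48 against 3.57 in BT-20. MIB2, a ubiquitin ligase, was lower too, at 3.58 against 4.61 in Hs578T, both under 5, and at 4.77 against 5.95 in BT-20. ZNF26, a zinc finger protein, was lower, at 4.66 against 5.88 in Hs578T, where the ODN2006 value and most M and U values (4.26 to 5.15) were near background, and at 5.56 against 6.81 in BT-20 (change -1.24, standard error 0.23). With values under 5 raised to 5 its change in Hs578T was -0.88. A second ZNF26 probe set changed by -0.37 and -0.00.

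The receptor itself was at background. TLR9 lay between 2.30 and 2.34 in all 12 arrays, and its trafficking partner UNC93B1 between 3.80 and 4.87. Much of the rest of the signalling chain was present, but not all of it in both lines. Of 24 list members with a probe set, 15 were at 5 or above in all 4 ODN arrays. MYD88 was at 9.09 against 9.11 in Hs578T, and at 9.55 and 9.59 in BT-20. IRAK1 was between 10.98 and 12.74 in the 4 ODN arrays. TRAF6, which joins the kinases to the IkB kinase complex, was the only 1 of 20 tested members with an unadjusted p under 0.05, beside 4.65% of all genes, and changed by -0.46 over both lines (standard error 0.14, adjusted p = 0.935 from limma). Its values were 4.55 against 5.28 in Hs578T and 6.56 against 6.75 in BT-20, and its other probe set changed by 0.41 and -1.36. CHUK, a catalytic subunit of the IkB kinase complex, was at 3.81 against 5.21 in BT-20 and at 8.13 against 7.98 in Hs578T. Over the list 9 members were higher and 11 lower, with a median of -0.019 beside -0.062 for all genes, and the median turned to 0.020 with housekeeping centring and to 0.028 after quantile normalization. The 17 tested sensors of cytosolic DNA and their adaptors had a median of -0.013, with 7 higher and 10 lower and 0 called. Of all genes 1.02% were called higher and 2.86% lower.

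Interferon genes were not detected and interferon-stimulated genes did not move together. The 11 interferon genes with a probe set had no value above 2.70 in the ODN arrays, among them IFNB1, interferon beta, at 2.39 to 2.44. Of 29 interferon-stimulated genes tested, 14 were higher and 15 lower, and the median was -0.014 (0.024 with housekeeping centring). An unadjusted p under 0.05 was had by 0 of them, beside 4.65% of all genes, so this count does not set the list apart. ISG15, a ubiquitin-like protein, was at 8.97 against 8.95 in Hs578T, and at 7.35 and 7.69 in BT-20. IFIT3, a partner of the RNA-binding protein IFIT1, was at 6.63 and 6.54 in Hs578T and at 6.14 and 6.55 in BT-20. The interval of a change was often wide, from -0.89 to 1.00 for IFIT2, so changes of up to about 1 in log2 lay within it. The largest changes over both lines were those of USP18, which removes ISG15 from proteins, at 6.18 against 5.73 in Hs578T and 6.16 against 5.66 in BT-20 (change 0.47, standard error 0.37), and of IDO1, at 2.44 against 3.75 in Hs578T. IDO1, an enzyme of tryptophan breakdown, lay between 6.44 and 7.46 in the M and U arrays of that line.

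**Figure D2:**
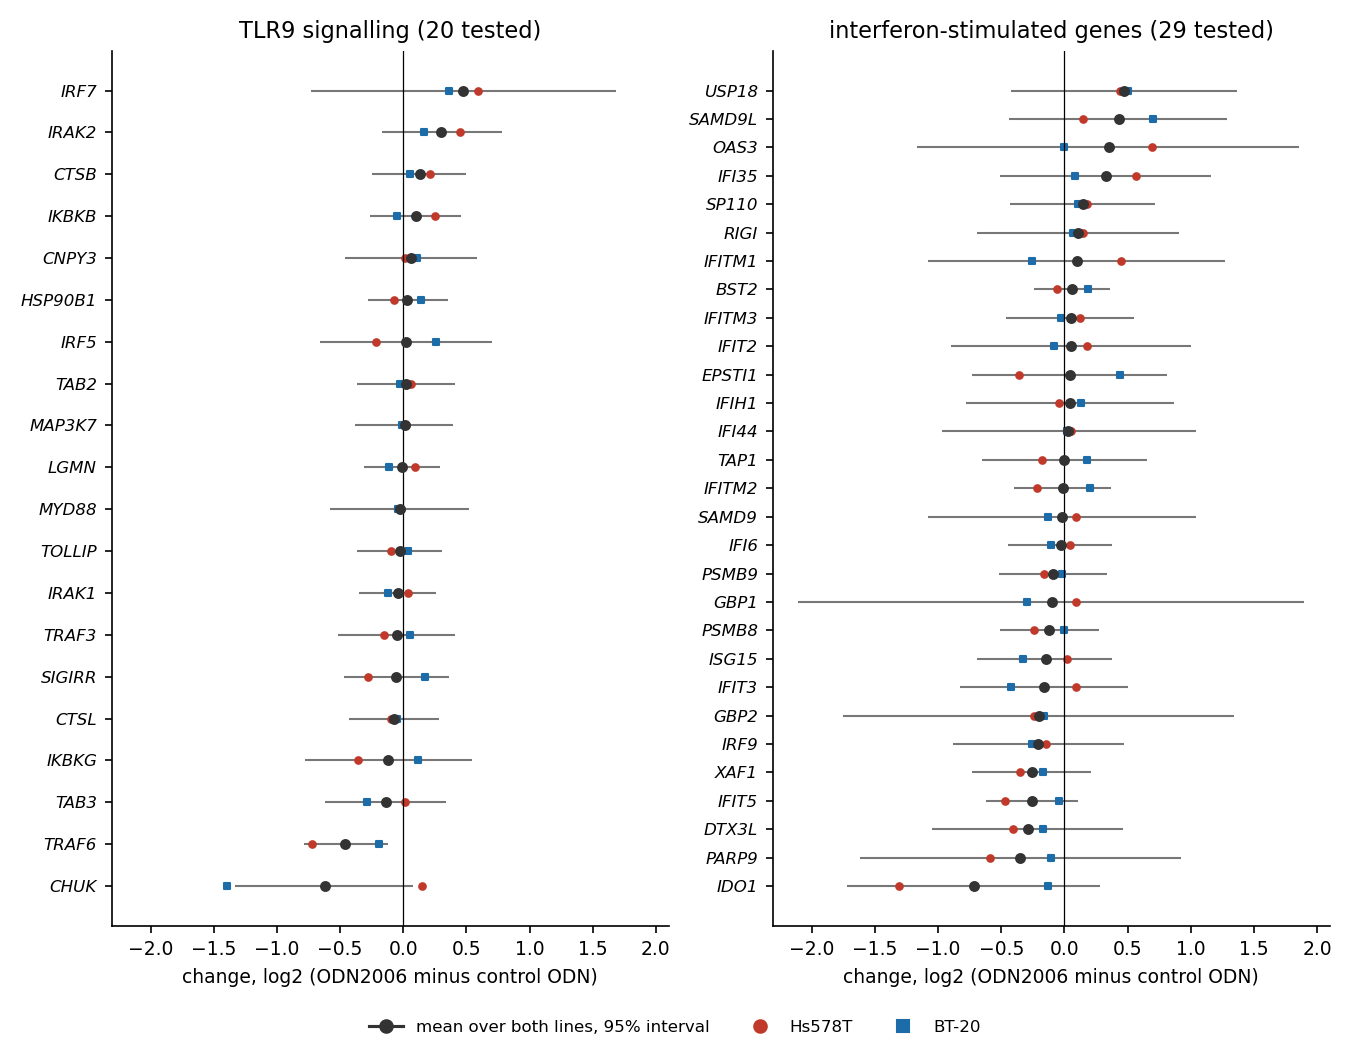
Change in log2 value (horizontal axis) with ODN2006 against its control for the tested genes of TLR9 signalling (left) and for interferon-stimulated genes (right), with black points and lines for the mean over both lines and its 95% interval, circles for Hs578T and squares for BT-20. The intervals of all but TRAF6 (-0.79 to -0.12) reach across 0.

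Inflammatory cytokines were higher with ODN2006 in Hs578T and nearly level in BT-20, where most lay at background. Of 25 cytokines and chemokines with a probe set, 12 were tested. In Hs578T 10 of the 12 were higher with a median change of 1.349, and in BT-20 8 were higher with a median of 0.051. The 12 entered mainly through Hs578T, since 2 of them were at 5 or above in all 4 ODN arrays (CXCL8 and LIF, median 0.927 over both lines). The median over both lines was 0.592, and 0.057 when dim genes were kept. M minus U gave list medians from -0.175 to 0.187 in its 4 pairs of arrays. No cytokine passed the threshold over all genes, and the test of the difference between the lines had no gene past it either.

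IL6, a cytokine of the acute phase, was at 11.99 against 10.44 in Hs578T, where M and U lay between 10.65 and 11.34. The ODN2006 array was thus above and the control array below all 4 M and U arrays of the line. In BT-20 it was at 2.31 and 2.44. CXCL8, interleukin 8, which attracts neutrophils, was at 12.28 against 10.34 in Hs578T, where M and U arrays lay between 10.13 and 11.28, and at 5.11 against 5.03 in BT-20. Its other probe set changed by 2.69 and 0.12. CXCL3, a chemokine of the same receptor, was the only 1 of the 12 called at an unadjusted p under 0.05 with the same sign in both lines, beside 1.02% of all genes called higher (change 1.54, standard error 0.33, adjusted p = 0.725 from limma). It was at 6.18 against 3.17 in Hs578T, with M and U arrays at 3.95 to 5.13, and at 3.11 and 3.04 in BT-20, where both values are at background. Its relative CXCL2 was at 6.16 and 4.39 in Hs578T and at 3.74 and 3.70 in BT-20, and the 2 genes are near copies of each other whose probes may share RNA.

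Other secreted factors had the same pattern in Hs578T. IL1B, interleukin 1 beta, was at 9.55 against 7.95, with M and U arrays spread from 4.96 to 7.90. IL11, which signals through gp130, was at 8.78 against 7.58, with M and U arrays at 6.98 to 7.58. LIF, of the same family, was at 8.04 against 6.54 in Hs578T and at 7.88 against 7.70 in BT-20. Both arrays of the pair were above or at the top of the M and U range for IL1B and IL11. CSF1, the growth factor of macrophages, went the other way, at 7.24 against 8.27 in Hs578T (M and U 8.15 to 8.50) and at 4.93 against 5.20 in BT-20. CXCL12, a chemokine made by fibroblast-like cells, was at 12.08 against 12.47 in Hs578T. TNF and CCL20, common early targets of NF-kB, were at 1.81 to 1.83 and at 2.23 to 2.27 in the 4 ODN arrays.

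The genes of NF-kB itself and its inhibitors were mostly higher in Hs578T and, as a list, near level in BT-20. NFKBIA, the inhibitor IkB alpha, was at 10.48 against 10.34 in Hs578T and at 10.19 and 10.20 in BT-20, all 4 above the M and U arrays of their line (up to 10.17 and 10.00). TNFAIP3, the inhibitor A20, was at 11.04 and 10.26 in Hs578T and at 4.73 and 3.32, both under 5, in BT-20 (change 1.10, standard error 0.47). A second TNFAIP3 probe set changed by 0.79 in Hs578T and by -0.41 in BT-20. TNIP3, which binds A20, was at 5.87 and 5.10 in Hs578T and at 3.10 and 3.15 in BT-20. NFKB2, a subunit, was at 7.09 against 6.66 in Hs578T and at 6.35 against 5.77 in BT-20. A second NFKB2 probe set, under 5 in these arrays, changed by 0.68 and 0.47. Of 15 subunits and feedback inhibitors tested, 12 were higher and 3 lower over both lines, and 0 were called with the same sign in both. Their median was 0.115 over both lines (0.280 in Hs578T, -0.012 in BT-20). Among 12 other targets, 8 were higher with a median of 0.112, and 1 was called, beside 1.02% of all genes called higher. This was PTGS2, the inducible cyclooxygenase, at 7.27 against 3.02 in Hs578T and at 2.80 and 2.73, both at background, in BT-20. Its control value in Hs578T lay below the M and U arrays, which ran from 3.40 to 6.04, so part of the range of 4.25 lies under 5: with values under 5 raised to 5 the change was 2.27.

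NF-kB binds DNA at kappa B motifs, and stretches that hold these letters are shown for cytokines described above. Promoters were read from RefSeq (GRCh38.p14) as 250 bases before to 50 after the start of a gene, and searched on both strands for the kappa B motif, taken as GGG, any 2 bases and TTTCC, or as GGGA, any base, TT, any base and CC, forms that overlap in part. Of 35116 such windows 2.73% held a match. A match was found for 8 of 18 cytokine genes with a window, for 10 of 13 NF-kB subunits and inhibitors and for 2 of 15 other targets. These counts are of genes with a match in any of their windows, and some genes have several windows. The share above is of single windows, so the measures differ. The match is in capitals, with 20 bases on each side.
CXCL3 (chr4:74038739-74038788, minus strand): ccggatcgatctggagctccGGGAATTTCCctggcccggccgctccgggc
CXCL2 (chr4:74099244-74099293, minus strand): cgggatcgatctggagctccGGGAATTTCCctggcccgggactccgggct
IL6 (chr7:22727107-22727156, plus strand): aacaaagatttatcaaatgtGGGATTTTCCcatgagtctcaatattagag
CXCL2 and CXCL3 hold the same match. CXCL8, with a change in Hs578T of 1.95, IL1B and IL11, also higher there, and CXCL12, lower there, had no match to these letters in their windows. CCL20, at background in the ODN arrays, held a match, and TNF, at background too, held none. Whether the motif goes with the change was not tested.

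Immediate early genes were mostly higher with ODN2006 in Hs578T. These genes answer growth factor and stress signals within minutes. Of 26 immediate early genes tested 21 were higher over both lines, with medians of 0.234 over both lines, 0.416 in Hs578T and 0.063 in BT-20. The M and U pairs gave medians from -0.428 to 0.402, as wide as the ODN change in Hs578T. DUSP6, a phosphatase of ERK, was at 10.09 against 7.57 in Hs578T (M and U 7.54 to 8.74) and at 6.12 and 5.83 in BT-20. It was the only 1 of the 26 called at an unadjusted p under 0.05 with the same sign in both lines, beside 1.02% of all genes called higher (change 1.41, standard error 0.42, adjusted p = 0.935 from limma). Its other probe sets changed by 2.41 and 3.18 in Hs578T, but by -0.34 and -0.68 in BT-20, where they lay under 5.

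EGR3, a zinc finger transcription factor, was at 7.12 against 4.42 in Hs578T (M and U 4.92 to 5.89) and at 3.19 against 3.51 in BT-20. DUSP5, a phosphatase of ERK too, was at 7.34 against 4.54 in Hs578T and at 8.10 against 8.19 in BT-20. The Sprouty genes SPRY2 and SPRY4, whose proteins limit receptor tyrosine kinase signalling, belong to no list here and were named for their p over both lines and their change in Hs578T. SPRY2 was at 9.49 against 7.83 in Hs578T, with M and U arrays at 8.16 to 8.77, and at 8.01 against 7.88 in BT-20. SPRY4 was at 7.54 against 5.37 in Hs578T and at 4.95 against 5.13 in BT-20. For each of these 4 genes the ODN2006 array of Hs578T was the highest of its line. HBEGF, a ligand of the EGF receptor, was at 9.43 against 7.36 in Hs578T and at 4.29 against 4.93 in BT-20. FOS went against the list in Hs578T, at 3.43 against 6.29, while the M and U arrays there were at 2.38 to 2.72, and in BT-20 it was at 8.46 against 7.83. EGR1 was high in all 4 ODN arrays, at 13.16 and 12.21 in Hs578T and at 13.54 and 13.42 in BT-20, each above the M and U arrays of its line (up to 11.28 and 13.19).

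Genes of matrix proteases and plasminogen activation were described as 1 list, and the difference between the lines was past the threshold for none of them. PLAUR, the receptor of urokinase, was at 10.38 against 8.79 in Hs578T and at 8.40 and 8.02 in BT-20 (change 0.98, standard error 0.36, adjusted p = 0.975 from limma). The M and U arrays lay between 9.34 and 10.08 in Hs578T and between 8.54 and 9.69 in BT-20, so the control was the lowest array of both lines at this probe set. The other PLAUR probe sets changed by 1.34 and 0.47 in Hs578T. In BT-20 they were level, at 8.04 against 8.06 and at 6.88 in both arrays. PLAT, tissue plasminogen activator, was at 10.55 and 9.06 in Hs578T and at 2.45 and 2.51 in BT-20. Of 9 tested matrix proteases, inhibitors and plasminogen genes 7 were higher, with a median of 0.242 that fell to 0.061 over the 4 at 5 or above in all ODN arrays. HAS2, which makes hyaluronan, was at 11.76 and 9.80 in Hs578T, with M and U at 8.87 to 9.80, and at 3.83 and 2.85 in BT-20. Its other probe set changed by 1.95 and 0.19.

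**Figure D3:**
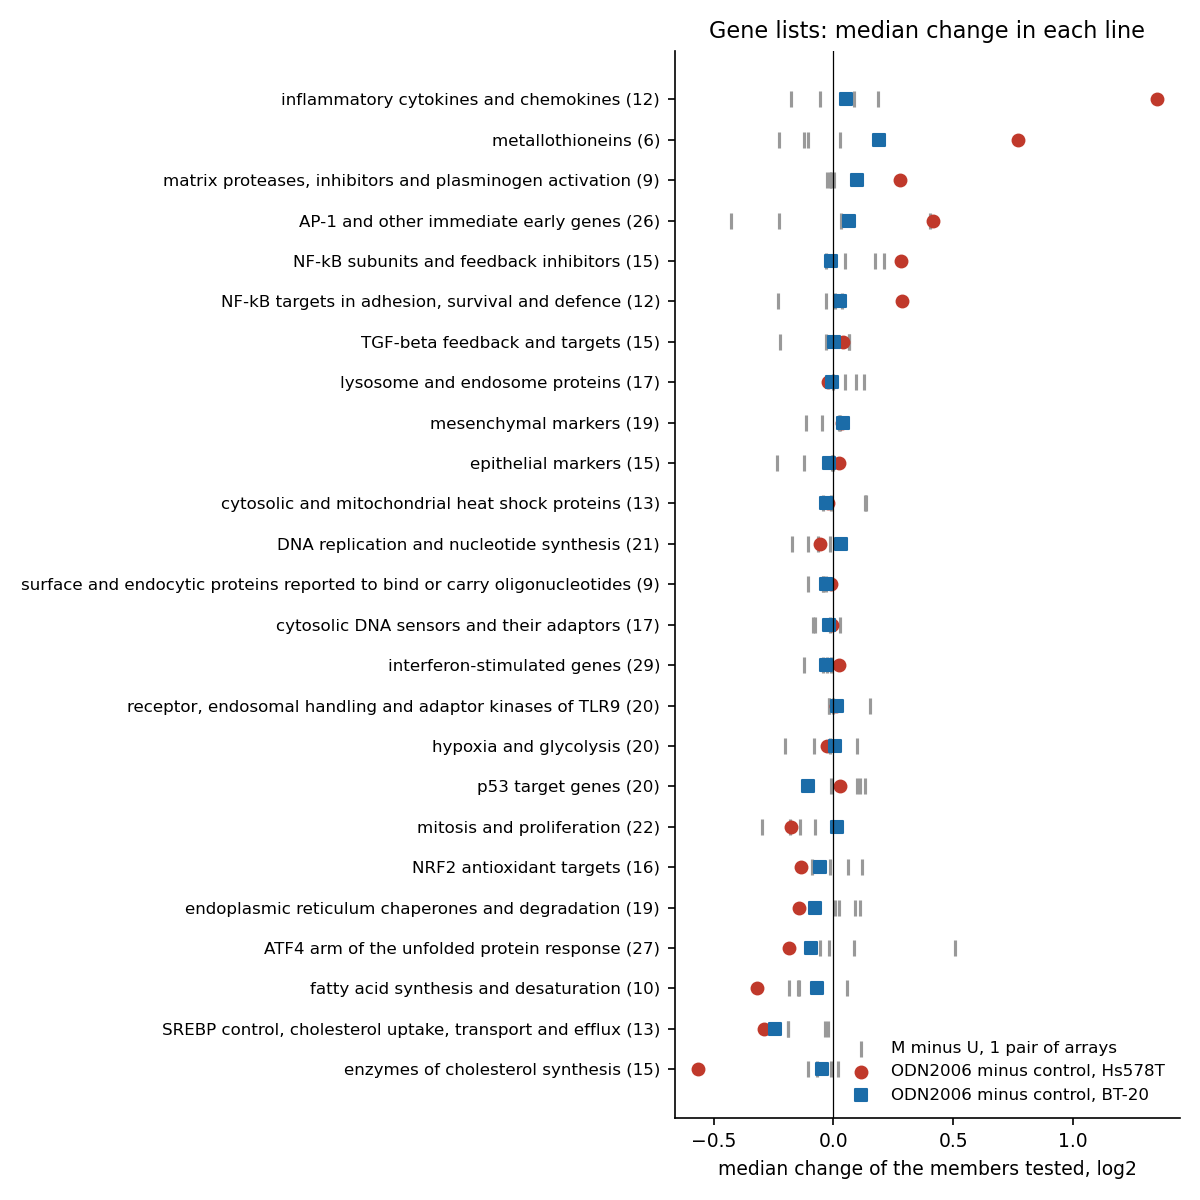
Median change in log2 value (horizontal axis) of each gene list with at least 5 members tested, with the number tested in brackets, for ODN2006 minus its control in Hs578T (circles) and BT-20 (squares), and for M minus U in each of 4 pairs of arrays (grey ticks). Cytokines, at 1.349, and metallothioneins, at 0.768, lie furthest to the right in Hs578T, and enzymes of cholesterol synthesis, at -0.566, furthest to the left.

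Metallothioneins were higher with ODN2006 in both lines. These small cysteine-rich proteins bind zinc and copper, and their genes are switched on by metals through the factor MTF1, and also by glucocorticoids. All 6 tested members were higher in Hs578T (median 0.768) and in BT-20 (median 0.191), and 3 were called (MT1G, MT1X and MT2A, adjusted p of 0.935, 0.975 and 0.975 from limma), beside 1.02% of all genes called higher. M minus U gave list medians of -0.121, -0.108, 0.026 and -0.227. Probe sets of this family can pick up RNA of several members, so the 6 values are not separate measurements.

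MT2A, the most abundant, was at 13.58 against 12.95 in Hs578T, and at 14.17 and 14.05 in BT-20. The M and U arrays lay at 12.88 to 13.04 in Hs578T and 13.98 to 14.27 in BT-20. Hs578T with ODN2006 stood above all other arrays of its line, while both BT-20 values lay within the M and U range. MT1X was at 12.39 and 11.58 in Hs578T (M and U 11.54 to 11.81) and at 13.01 and 12.79 in BT-20 (M and U 12.71 to 13.10). MT1G was at 11.16 and 10.40 in Hs578T (M and U 10.41 to 10.68) and at 11.83 and 11.45 in BT-20 (M and U 11.46 to 11.84). In Hs578T all 6 tested members were above all 4 M and U arrays with ODN2006, and 0 were with the control. In BT-20 0 of 6 were above and 0 below them with ODN2006, and 2 were below them with the control. NR3C1, the glucocorticoid receptor, was at 12.06 against 11.26 in Hs578T and at 9.94 against 9.76 in BT-20 (change 0.49, standard error 0.15), but its other 4 probe sets changed by -0.15 to 0.07 in BT-20.

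The promoters of metallothionein genes are dense in metal response elements, and are shown to let these be seen. Windows for 3 of the 7 genes with a probe set were at hand, and TGCACNC and TGCGCNC were searched for on both strands. At least 1 match was held by 29.6% of 35116 windows and at least 4 by 0.601%. MT2A and MT1H held 8 each, and MT1X held 4. Matches are in capitals.
MT2A (chr16:56608334-56608633, plus strand): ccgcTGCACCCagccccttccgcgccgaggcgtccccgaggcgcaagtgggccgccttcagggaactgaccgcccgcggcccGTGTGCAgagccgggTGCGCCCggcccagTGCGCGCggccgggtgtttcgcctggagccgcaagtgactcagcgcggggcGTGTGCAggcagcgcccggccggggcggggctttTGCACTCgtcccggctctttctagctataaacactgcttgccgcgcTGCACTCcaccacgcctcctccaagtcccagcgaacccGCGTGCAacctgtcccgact
MT1X (chr16:56682220-56682519, plus strand): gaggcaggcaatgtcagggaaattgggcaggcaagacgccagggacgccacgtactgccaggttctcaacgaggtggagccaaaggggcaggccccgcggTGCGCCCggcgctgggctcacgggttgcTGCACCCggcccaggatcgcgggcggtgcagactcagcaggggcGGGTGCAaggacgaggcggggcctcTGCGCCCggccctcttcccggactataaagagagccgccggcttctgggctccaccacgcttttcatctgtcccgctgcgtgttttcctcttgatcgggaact

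Genes of cholesterol synthesis were lower with ODN2006 than with its control. SREBP-2, encoded by SREBF2, drives these genes when sterols are low, and INSIG1 holds it back. Over both lines 15 of 15 tested enzymes were lower, with a median of -0.274, and 4 were called (HMGCS1, MVK, MVD and MSMO1, adjusted p of 0.935 to 0.999 from limma), beside 2.86% of all genes called lower. The size differed by line: 14 of 15 were lower in Hs578T (median -0.566), and 9 of 15 in BT-20, where the median of -0.046 was close to the -0.036 of all genes. Of 13 tested genes of SREBP control and cholesterol transport 12 were lower (median -0.220), 11 of 13 in Hs578T (median -0.291) and 13 of 13 in BT-20 (median -0.242), and 3 were called (SREBF2, INSIG1 and STARD4). M minus U gave medians of -0.105 to 0.021 for the enzymes and -0.190 to -0.021 for the control genes. The 10 tested genes of fatty acid synthesis had a median of -0.200, with 9 lower and 0 called. The list and its direction were known from earlier results of these arrays.

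HMGCS1, which makes HMG-CoA for the pathway, was at 8.78 against 9.87 in Hs578T, where M and U arrays lay between 8.38 and 8.87. In BT-20 it was at 8.58 and 8.81, with M and U arrays at 7.59 to 7.98. The control array was the highest of each line, and the ODN2006 array lay within the M and U range in Hs578T and above it in BT-20. INSIG1, the sterol-dependent brake on SREBP, was at 11.63 against 12.18 in Hs578T (M and U 11.18 to 11.37) and at 9.95 against 10.43 in BT-20 (M and U 8.15 to 8.42), for a change of -0.51 (standard error 0.13, adjusted p = 0.935 from limma). Its other 2 probe sets changed by -0.68 and -0.75 in Hs578T and by -0.35 and -0.26 in BT-20. STARD4, a carrier of cholesterol, was at 8.42 against 9.07 in Hs578T (M and U 7.86 to 8.25) and at 3.50 against 4.36 in BT-20, under 5. SREBF2 was at 8.01 against 8.62 in Hs578T and at 6.60 against 6.94 in BT-20 (M and U 5.95 to 6.45).

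For this pathway the control ODN stood further from M and U than ODN2006 did in Hs578T. With the control, 14 of 15 enzymes were above all 4 M and U arrays of Hs578T and 0 were below, while with ODN2006 7 were above and 2 below. In BT-20 14 of 15 were above with the control and 15 of 15 with ODN2006. In BT-20 both single-stranded oligonucleotides thus stood above M and U for nearly every enzyme, and in Hs578T only the control did. DHCR7, which makes the last step to cholesterol, was at 9.49 with ODN2006, 10.06 with the control and 8.98 to 9.26 with M and U in Hs578T, and at 9.03, 9.01 and 7.63 to 7.77 in BT-20. The arrays of the ODNs carry no set number in the labels, and a difference of the cultures cannot be told apart from 1 of the oligonucleotides.

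**Figure D4:**
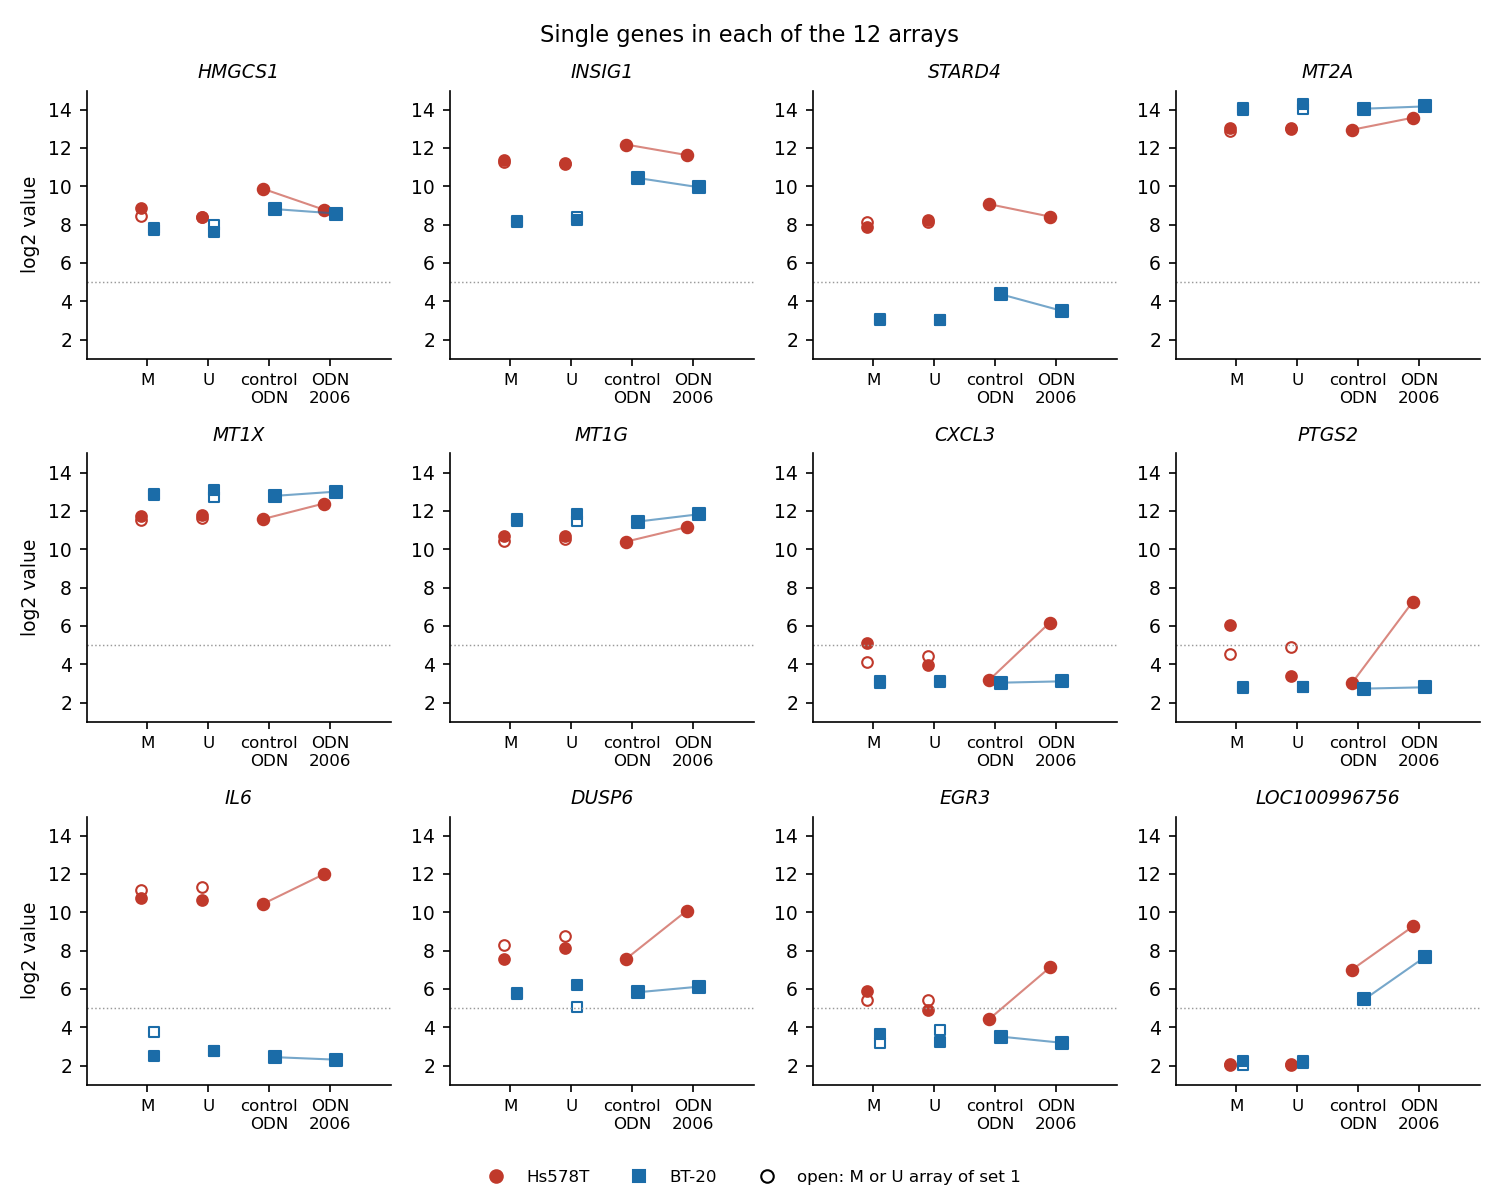
Log2 values (vertical axis) of 12 genes in each of the 12 arrays by oligonucleotide (horizontal axis), with circles for Hs578T, squares for BT-20, open symbols for set 1, lines joining the control ODN and ODN2006 arrays of a line, and a dotted line at 5. In Hs578T HMGCS1 and INSIG1 lie lower and MT2A and MT1X higher with ODN2006, and LOC100996756 is above 5 only in the 4 ODN arrays.

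Genes of endoplasmic reticulum stress were mostly lower over both lines, as were all genes, of which 35.1% were higher. Of 27 tested genes of the ATF4 arm, which answers unfolded protein and amino acid shortage, 8 were higher and 19 lower (median -0.136), and 1 was called, PSPH, an enzyme of serine synthesis, beside 2.86% of all genes called lower. In Hs578T 5 were higher and 22 lower (median -0.185), beside 38.0% of all genes higher. In BT-20 9 were higher and 18 lower (median -0.093), beside 41.8%. M minus U gave list medians from -0.054 to 0.506. PSPH was at 9.92 against 10.66 in Hs578T and at 10.90 against 11.45 in BT-20 (change -0.64, standard error 0.18, adjusted p = 0.935 from limma), the lowest array of each line. CHAC1, which breaks down glutathione, changed by -0.10 in Hs578T and -0.58 in BT-20 (standard error over both lines 0.48). Of the 19 tested chaperones 5 were higher and 14 lower, with a median of -0.109 and 0 called. Genes of mitosis and proliferation were lower in Hs578T (20 of 22, median -0.176) and level in BT-20 (median 0.015), with 0 called, and M minus U medians were lower too, from -0.299 to -0.078. ID3, an inhibitor of differentiation factors in the TGF-beta list, was at 11.00 against 12.04 in Hs578T and at 9.93 against 9.88 in BT-20.

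Among genes with the smallest p over both lines and the same sign in both, several of the higher ones changed mainly in Hs578T or were low with the control. RCC1, the exchange factor of the GTPase Ran, was at 9.98 against 8.69 in Hs578T and at 9.65 against 9.62 in BT-20, and the M and U arrays of Hs578T were at 9.57 to 9.73, so it was the control array that stood low. ADRA2C, an adrenergic receptor, was likewise lowest with the control, at 4.08 and 5.81, against 5.28 and 6.34 with ODN2006. TMEM201, a protein of the inner nuclear membrane, was at 7.75 against 7.12 in Hs578T and at 6.17 against 5.38 in BT-20. Its ODN2006 values lay within the M and U ranges (7.60 to 7.91 and 6.10 to 6.58) and its control values below them. DIP2A was higher in both lines, at 9.75 against 8.97 in Hs578T and at 8.75 against 8.34 in BT-20, and UACA changed by 0.79 and 0.49, but other probe sets of each changed the other way. COL6A1, a collagen chain, ENTPD7, FRMD6-AS1 and DHX9-AS1 also belonged here, with changes of 0.52, 0.58, 0.71 and 0.42. With the mean over all probe sets of a gene the change was 0.05 for UACA, 0.19 for COL6A1 and 0.35 for TMEM201, and with values under 5 raised to 5 it was 0.41 for ADRA2C, beside 0.64, 0.52, 0.71 and 0.86.

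Several of the lower genes differed in both lines. PTDSS2, which makes phosphatidylserine, was at 5.30 against 6.93 in Hs578T and at 5.19 against 5.82 in BT-20, below the M and U arrays of both lines (6.18 to 6.61 and 5.90 to 6.40). ACTR5, a subunit of the INO80 chromatin remodeller, was at 4.95 against 5.94 and at 6.51 against 7.02, again below the M and U arrays (6.03 to 6.44 and 7.07 to 7.24). A second ACTR5 probe set changed by -0.80 in Hs578T and by 0.10 in BT-20. LRIG2 was at 6.49 against 7.37 in Hs578T and at 8.27 against 8.58 in BT-20. RRAS, a small GTPase, was at 10.50 against 10.80 and at 5.77 against 6.66. IVD, an enzyme of leucine breakdown, was at 6.63 against 7.49 and at 7.15 against 7.58, below M and U in both lines (7.05 to 7.29 and 7.22 to 7.55). PCTP, a carrier of phosphatidylcholine, was at 7.98 against 8.36 in BT-20 and at 4.10 against 5.23 in Hs578T, where M and U were at 6.10 to 6.59. Raising values under 5 to 5 took its change from -0.76 to -0.31. For IVD the mean over its probe sets took the change from -0.64 to -0.33. ANKRD46 was at 6.61 against 7.07 in Hs578T and at 3.29 against 5.29 in BT-20, so most of its change of -1.23 lies under 5, and it was -0.38 with values raised to 5. FAM118A, DYNC2I1, PBLD and PRPF39 completed the 12, with changes of -0.89, -0.69, -0.95 and -0.58. Each of the 24 genes named in these 2 paragraphs or above by this rule, other than LOC100996756, had an adjusted p above 0.05.

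In Hs578T alone the largest differences among well measured genes, beside DUSP6, SPRY4, HBEGF and HAS2, included PKIA, an inhibitor of protein kinase A, at 7.52 against 4.97, although M and U arrays there ranged from 6.97 to 9.13. The other PKIA probe set was at 5.40 against 4.99. On the lower side KCNE4, a subunit of potassium channels, was at 6.11 against 8.29 (M and U 7.62 to 8.06), with its other probe sets lower by -3.02 and -2.24. DACT1, an inhibitor of Wnt signalling, was at 6.63 against 8.36 (M and U 8.17 to 8.36). AKR1B10, an aldo-keto reductase, was at 4.98 against 6.68 in Hs578T and at 13.57 against 13.67 in BT-20. ABHD8 and SESN3 were at 4.37 against 6.34 and at 5.23 against 7.06.

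BT-20 had fewer large differences, and most were lower. BICDL1 was at 5.09 against 7.97, with M and U arrays at 7.06 to 7.93. HUNK, a kinase, was at 5.17 against 6.92 (M and U 6.80 to 7.63), and KDF1, a factor of keratinocyte differentiation, was at 4.14 against 6.24 (M and U 6.11 to 6.95). In each of these 3 the ODN2006 array stood apart from the other 5 of the line. NMT2 and SHISA2 were at 3.97 against 5.91 and at 3.72 against 5.95. A second NMT2 probe set was at 5.30 against 5.20. On the higher side IGFL1 was at 5.93 against 4.19, under its M and U arrays at 6.35 to 7.08, and TNK1 at 7.06 against 5.84, with M and U at 6.08 to 7.11. SPACA9, LINC01127 and FLYWCH1 were at 5.98, 5.53 and 6.16 with ODN2006 and at 4.65, 4.23 and 4.94 with the control. A second FLYWCH1 probe set was at 5.25 in both arrays. NDRG1, a gene of the hypoxia list, was at 6.34 against 4.38 in BT-20 and at 9.96 against 9.95 in Hs578T.

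The difference between the lines was tested for every gene, and the genes with the smallest p are given as levels. RAD23B, a partner of the repair factor XPC, was at 12.29 against 10.49 in Hs578T and at 13.37 against 13.56 in BT-20 (adjusted p of the difference 0.764 from limma), but 3 other probe sets changed by -0.32 to -0.08 in Hs578T. H2BC21, a histone, was at 5.56 against 3.75 in Hs578T, where M and U were at 2.78 to 3.19, and at 8.28 against 8.43 in BT-20. CD101 was at 7.54 against 6.02 in Hs578T, above M and U at 3.10 to 3.39, and at 4.43 against 4.83 in BT-20. The other CD101 probe set was at 4.91 against 5.01 in Hs578T. H1-9P, a transcribed pseudogene of a linker histone, ran against these, at 6.05 against 8.23 in Hs578T, and it lay between 2.42 and 2.90 in the other 10 arrays. CDH1, E-cadherin, stayed under 5 in Hs578T, at 4.89 against 3.07, and was at 13.31 against 13.49 in BT-20. The other CDH1 probe set was at 2.31 against 2.28 in Hs578T. EPN1, DUSP18 and ALG12 were also named by this rule, with adjusted p of the difference of 0.779 each.

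The other lists stayed near the median of all genes. Medians over both lines were -0.007 for DNA replication, -0.048 for p53 targets, -0.088 for NRF2 targets, 0.003 for heat shock proteins, -0.044 for hypoxia and glycolysis, 0.024 for lysosome proteins, 0.025 for TGF-beta targets and -0.012 for proteins that bind or carry oligonucleotides. Within them POLH, a DNA polymerase among the p53 targets, was at 8.92 against 8.39 in Hs578T and at 8.02 against 7.77 in BT-20, but other probe sets of it above 5 changed by -0.04 and -0.53, by -0.32 and -0.23, and by 0.05 in each line. TP53INP1 was at 4.70 against 5.97 and at 4.41 against 5.08. TKT, transketolase, was at 12.68 against 13.25 and at 12.90 against 12.98. None of these passed the threshold over all genes.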

How the data were processed

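RNA from Hs578T and BT-20 cells was measured on 12 oligonucleotide arrays. Per the labels, the submitters made 1 log2 value per probe set with GCRMA in R 2.4. Whether the 12 arrays were normalized together is not given in the sources used here. The deposited log2 values were used without further scaling. Of 54675 probe sets, 41097 were annotated to 1 gene, 1801 to several and 11777 to none. Current symbols came from RefSeq (GRCh38.p14) for 41043, and each of 19775 genes was represented by its probe set of highest mean.

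Groups and set numbers came from the labels. A model with 1 mean per line and treatment was fitted to all 12 arrays in limma 3.58.1 under R 4.3.3 (4 residual degrees of freedom, eBayes, Benjamini-Hochberg over 10543 genes, threshold 0.05). Contrasts were ODN2006 minus its control over both lines (mean of the 2 differences), in each line, and between the lines. The spread came from M and U, and p-values measure only the spread between these samples. The number of arrays limits the precision, with a median standard error of 0.187 over both lines and 0.265 in 1 line. A list member was called at an unadjusted p under 0.05 with the same sign in both lines. The members and the 29 gene lists were chosen with earlier results of these data known.

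Named over both lines were genes past the threshold and, in each direction, the 12 of smallest p, of the same sign in both lines and at 5 or above in at least 1 ODN array of each. In each line the 5 largest changes in each direction were named, among genes at 5 or above in its M and U sets and in at least 1 of its ODN arrays. For the difference between lines the 5 smallest p in each direction were named, as were up to 5 members of a list, by p. List members named beyond these, for their roles, and genes over 2-fold in both lines were chosen after their values were seen.

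M and U of the same set deviated together within a line (correlation 0.594 in Hs578T and 0.591 in BT-20 across 10543 genes, against 0.0991 to 0.129 between lines), so set within line was tried as a block. In simulated data at this spread, over 10543 genes, 53% of 100 genes changed by a log2 size of 1 and 87% of 100 changed by 2 were recovered over both lines, with 10 unchanged genes called. The simulated arrays varied independently and the ODN arrays were given the M and U spread, so these rates need not hold for the real arrays. Genes without a name in the probe table are not covered.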

Additional observations from a re-analysis of the deposited data

Results flagged for a closer look

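Probe sets without exactly 1 listed gene were outside the comparisons above. Of 13522, 2770 passed the filter on dim values, and these were fitted and adjusted on their own, apart from the 10543 genes. Of the 2770, 3 passed the adjusted threshold over both lines in limma, which flagged them as a signal in data the report did not use. Probe set 1556545_at was at 11.32 against 7.20 in Hs578T (ODN2006 against control) and at 8.34 against 2.15 in BT-20, with M and U between 2.14 and 2.46 (change 5.16, standard error 0.14, adjusted p = 6.19e-05). Since its control value in BT-20 is at background, the change was 3.73 with values under 5 raised to 5. Probe set 235102_x_at, which is annotated to several genes, was at 10.06 and 8.47 in Hs578T and at 7.31 and 5.54 in BT-20, with M and U at 4.06 to 4.38 (change 1.68, adjusted p = 0.0194). Probe set 207737_at was at 8.39 and 5.68 in Hs578T and at 2.94 and 2.91 in BT-20, with M and U at 2.87 to 2.96 (change 1.37, adjusted p = 0.0200). Each standard error comes from M and U arrays at or near background, as for LOC100996756. The first of these was also past the threshold in both lines (adjusted p = 0.00193 in Hs578T and 0.000166 in BT-20) and the third in Hs578T (0.00409).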

How the results depend on the processing

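The calls past the adjusted threshold were few and changed with the settings. Over both lines the 1 gene became 0 with the 4 ODN arrays alone, with the ODN and set 2 arrays alone, with the trend and robust settings and with 5 or above asked in all 12 arrays, 3 with values under 5 raised to 5 and 150 without the filter on dim genes. In Hs578T the 0 genes became 9 with values under 5 raised to 5, 2 with the mean over all probe sets and 182 without the filter. In BT-20 the 2 genes became 0 with the replicate block, with the trend and robust settings, with 5 in all 12 arrays and with housekeeping centring, 1 with values under 5 raised to 5 or with the mean over all probe sets, and 75 without the filter. The difference between the lines went from 0 to 134 without the filter. Without 1 M or U replicate at a time the count was 0 to 1 over both lines and 0 in BT-20. Without the filter, genes at background with a very small spread enter the test.

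Genes at an unadjusted p under 0.05 with the same sign in both lines numbered 108 higher and 302 lower. The higher ones became 241 with the replicate block, 697 without the filter and 49 with 5 in all 12 arrays. The lower ones became 710 with the replicate block, 465 with the 4 ODN arrays alone, 522 with the ODN and set 2 arrays and 532 without the filter. Beside these counts and the 2 genes of BT-20, the replicate block, set within cell line for M and U, changed no count by over 1.5 times, and it left LOC100996756 past the threshold. The median change of the cytokine list went from 0.592 to 0.057 without the filter and to 0.927 over the members at 5 or above in all 4 ODN arrays, an alternative chosen after seeing the data. The medians of the sterol, metallothionein, NF-kB, immediate early and ATF4 lists kept their sign under all alternatives tried, and those of TLR9 signalling and interferon-stimulated genes, near 0, did not.

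Of the 24 genes named over both lines none changed direction where a value could be had, but 8 moved by over 1.5 times. With values under 5 raised to 5 the change went from 0.86 to 0.41 for ADRA2C, from -1.23 to -0.38 for ANKRD46 and from -0.76 to -0.31 for PCTP. With the mean over all probe sets it went from 0.64 to 0.05 for UACA, from 0.52 to 0.19 for COL6A1, from 0.71 to 0.35 for TMEM201, from -1.24 to -0.71 for ZNF26 and from -0.64 to -0.33 for IVD. For DHX9-AS1, DIP2A, DYNC2I1 and PBLD that mean did not pass the filter on dim genes and gave no value, and 12 of the 24 had none with 5 or above asked in all 12 arrays. The ODN arrays are single, so leaving out 1 of them leaves no comparison in its line.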
